A study of Homo sapiens with 9 samples.

Results

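The genes described are NEAT1 and MALAT1, a pair of long noncoding RNAs made from adjacent genes, and 7 proteins that assemble with NEAT1 in nuclear bodies called paraspeckles: SFPQ, NONO, PSPC1, HNRNPK, RBM14, TARDBP and DAZAP1. They were taken by symbol from the authors' table and followed by Ensembl identifier into the read count of each library, and where a symbol had more than 1 identifier (MALAT1 and TARDBP, 2 each) the one with the most counts was kept. That gave 9 genes of the 64253 identifiers counted, and all 9 passed the filter on low counts. The list was chosen by the measured rank of NEAT1 among the highest log2 fold changes in shRRM2 against control, so the NEAT1 values are given as a description, with no p-value, in every comparison. The 7 proteins were listed for their place in the same nuclear bodies, and MALAT1 as the RNA of the adjacent gene. Their p-values were adjusted over all 16561 genes tested. The whole list was chosen with earlier results of these data known, so these p-values do not come from a choice made blind to the data.

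The libraries came from IMR90, a human lung fibroblast line with a limited lifespan in culture, cultured in 2% oxygen to population doubling 30. All 9 were infected with pLKO.1 lentivirus in 2 rounds, 24 hours apart, and kept in puromycin at 3 ug/mL for 7 days. The 3 control libraries carried vector only, described as empty in the sample labels and as GFP vector in the protocol. The 3 shRRM2 libraries, labelled senescent, carried a hairpin against RRM2, a subunit of the reductase that supplies dNTPs. The 3 shRRM2/shp16 libraries, labelled as having bypassed senescence, carried hairpins against RRM2 and against p16, the CDKN2A product. The labels name 1 hairpin per gene and no group with the p16 hairpin alone, so effects of a hairpin on other transcripts cannot be told apart from those of its target. Whether the replicates are independent infections is not labelled either, so p-values measure the spread between these libraries only.

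Paraspeckles form around the long NEAT1 transcript, which is held in the nucleus and bound along its length by the DBHS family of RNA-binding proteins (SFPQ, NONO and PSPC1) and by other RNA-binding proteins. A short NEAT1 transcript starts at the same place but ends at an early polyadenylation site, and it cannot build the body without the long form. MALAT1 sits next to a different compartment, the nuclear speckle, which is rich in splicing factors. NEAT1 is known to be raised by several kinds of cell stress.

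Gene-assigned counts ranged from 15770895 to 24873291 per library. RRM2 was at 485 ± 5.23, 62.1 ± 1.86 and 177 ± 3.00 CPM (counts per 1000000 reads, scaled by TMM factors, mean ± SD, n = 3) in control, shRRM2 and shRRM2/shp16. CDKN2A was at 6.02 ± 0.11, 6.50 ± 0.46 and 4.28 ± 0.32 CPM, on 79 to 142 reads per library, and that count does not separate p16 from the ARF transcript of the same gene. RRM2 stood at 12.8% of control in shRRM2 and at 36.5% in shRRM2/shp16. Between these groups its log2 fold change was 1.51 ± 0.035 (SE, edgeR adjusted p 7.9e-34). The hairpin groups thus differ in RRM2 level as well as in the p16 hairpin. In comparisons between them these differences cannot be told apart. All 9 fibroblast markers listed were counted in every library. Their summed level was 37676 to 38847 CPM in control, 40750.5 to 41708 in shRRM2 and 28767 to 29430 in shRRM2/shp16. Of the 9, 6 were lower and 2 higher in shRRM2/shp16 than in control, beside 32.4% and 30.0% of all genes. Their log2 fold changes ran from -1.32 ± 0.03 (SE) for VIM to 1.08 ± 0.02 for COL3A1. Epithelial markers summed to at most 2.20 CPM, with KRT5, SFTPC and SCGB1A1 at 0 in every library, and blood cell markers to at most 5.97 CPM. The endothelial list summed to 65.4 to 70.6 CPM in control, 68.0 to 73.1 in shRRM2 and 115 to 124 in shRRM2/shp16, nearly all of it TEK (65.2 ± 2.4, 67.4 ± 2.0 and 115 ± 5.0 CPM). Of 4 endothelial markers tested, 3 were higher in shRRM2/shp16 than in control and 0 lower: TEK (0.82 ± 0.04, adjusted p 1e-21), KDR (1.003 ± 0.20, adjusted p 3e-05, on 17 to 85 reads) and VWF (0.91 ± 0.36, adjusted p 0.0253, on 8 to 28 reads). In this comparison 30.0% of all genes were called higher and 32.4% lower. CDH5 had at most 1 read in any library. The part of these markers in the results for shRRM2/shp16 was not tested. Reads that fell in no annotated feature made up 17.6% to 18.9% of uniquely aligned reads in control, 27.7% to 28.8% in shRRM2 and 23.5% to 24.4% in shRRM2/shp16. These groups did not overlap, and each of the 3 exact two-sided permutation tests gave p = 0.1, the smallest that 3 libraries against 3 allow. This share has the same order over the groups as NEAT1 and MALAT1 below, and its part in their levels was not tested.

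NEAT1 (ENSG00000245532; GRCh38 chromosome 11, 65422774 to 65445540, plus strand) was the member that differed most between groups. Its level was 435, 469 and 469 CPM in control replicates a, b and c. It was 3159, 3051 and 3149 CPM in the shRRM2 libraries and 1461, 1502 and 1533 CPM in the shRRM2/shp16 libraries. Every shRRM2 library was above every shRRM2/shp16 library, and those were in turn above all controls. The mean was 6.81-fold the control mean in shRRM2 and 3.27-fold in shRRM2/shp16, and in shRRM2/shp16 it stood at 48.0% of the shRRM2 level. As log2 fold changes these are 2.77 ± 0.03 (SE) for shRRM2 against control, -1.06 ± 0.03 for shRRM2/shp16 against shRRM2 and 1.71 ± 0.03 for shRRM2/shp16 against control. The counts behind these values ran from 7880 to 54877 reads per library. In bulk RNA a change in the number of expressing cells and a change in RNA per cell cannot be told apart.

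**Figure D1:**
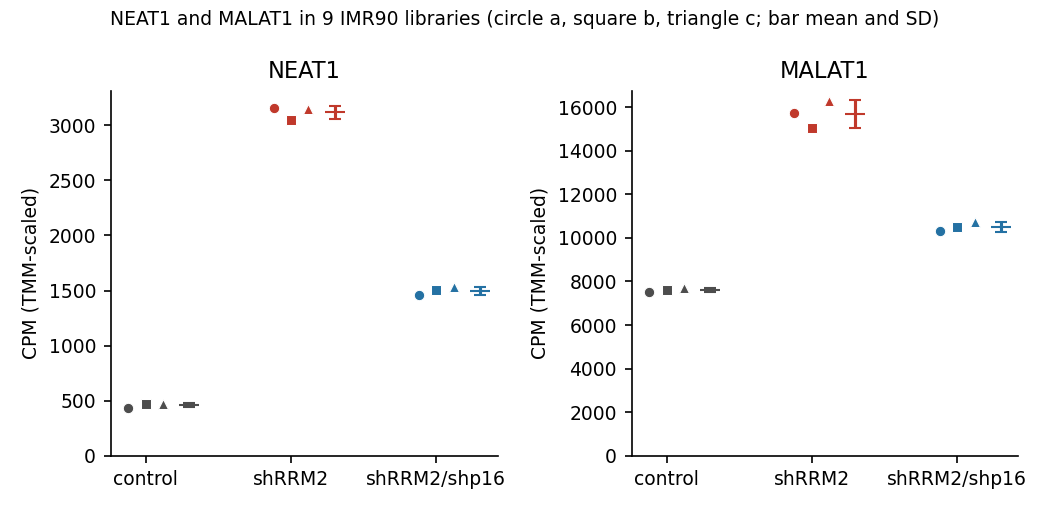
TMM-scaled CPM of NEAT1 (left) and MALAT1 (right) in each library, with replicates a, b and c as circle, square and triangle and the group mean and SD beside them. For both RNAs the 3 groups do not overlap, with control lowest (458 CPM for NEAT1 and 7598 CPM for MALAT1 on average) and shRRM2 highest (3120 and 15696 CPM).

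The count covers the whole NEAT1 gene and does not separate its forms. GENCODE 29 lists 1 transcript over the full 22743 bases and 7 short ones that end between positions 65424404 and 65426513, so reads from the first part of the gene can come from either. The early end is the site at which HNRNPK, one of the proteins described below, is known to favour the long form, by keeping the cleavage factor made of NUDT21 and CPSF6 from its UGUA sites. The 150 bases around it (GRCh38 chr11:65426379-65426528, plus strand, from the GENCODE 29 long transcript, written as DNA) are shown because the choice between the forms is made there, with TGTA (UGUA in RNA) and the polyadenylation signal AATAAA in capitals:

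NEAT1 short end: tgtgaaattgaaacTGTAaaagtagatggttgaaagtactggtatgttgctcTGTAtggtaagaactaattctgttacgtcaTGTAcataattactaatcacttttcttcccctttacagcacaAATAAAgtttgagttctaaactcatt

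The window was placed by the first AATAAA past the end of 1 annotated short transcript, so it holds that signal by construction. It holds 3 TGTA, a number reached or passed in 13 of 151 windows of 150 bases laid along the long transcript (8.61%). AATAAA occurs in 7 of the 151 (4.64%), which is no test of the placed window. Both were searched on the transcript strand only, since they act in RNA, and a match is a description of the letters and not a measured site.

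At their far ends NEAT1 and MALAT1 share a design. Both RNAs end not with a poly(A) tail but where RNase P cuts in front of a tRNA-like fold, and U-rich runs pair there with an A-rich end to form a triple helix that protects the RNA. The last 100 bases of the long NEAT1 transcript (GRCh38 chr11:65445441-65445540) and the 100 bases of MALAT1 just before its tRNA-like RNA, mascRNA (chr11:65506017-65506116), both plus strand from GENCODE 29, are shown because this is the sequence the RNAs have in common. Capitals mark every run of at least 8 bases found in both windows:

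NEAT1 end: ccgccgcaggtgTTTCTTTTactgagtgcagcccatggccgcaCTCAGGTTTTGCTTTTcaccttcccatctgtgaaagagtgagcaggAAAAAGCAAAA

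MALAT1 end: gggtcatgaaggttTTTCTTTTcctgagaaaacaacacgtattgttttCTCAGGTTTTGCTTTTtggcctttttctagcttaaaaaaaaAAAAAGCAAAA

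There were 3 such runs, in the same order in both. The longest, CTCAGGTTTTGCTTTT, has 16 bases and occurs in the last 100 bases of 1 of 203519 annotated transcripts, the long NEAT1 transcript itself. The annotated MALAT1 gene runs on past the cut. AAAAAGCAAAA closes both windows and is found in 0.0462% of transcript ends, and TTTCTTTT in 1.25%.

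MALAT1 (ENSG00000251562; chromosome 11, 65497688 to 65506516, plus strand), which starts 52147 bases past the end of NEAT1, moved in the same order by smaller steps. It was at 7502, 7601 and 7689 CPM in the control libraries, 15737, 15046 and 16305 CPM in shRRM2 and 10296, 10495 and 10734 CPM in shRRM2/shp16, with no overlap between groups. The log2 fold change was 1.05 ± 0.02 (SE) in shRRM2 against control (edgeR adjusted p 5.6e-34), a 2.07-fold rise. Between shRRM2 and shRRM2/shp16 it fell (log2 fold change -0.58 ± 0.02, adjusted p 8.5e-25), and it stayed above control (0.47 ± 0.02, adjusted p 1.5e-21). On the authors' deposited log2 RPKM columns limma did not call MALAT1 in any comparison (adjusted p 0.238, 0.575 and 0.511). Without the shRRM2 replicate c column described below, limma called shRRM2 against control but not the others (adjusted p 0.109 and 0.0788).

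Together the RNAs took 0.777% ± 0.014 of all gene counts in control, 1.87% ± 0.066 in shRRM2 and 1.24% ± 0.028 in shRRM2/shp16 (SD, n = 3). MALAT1 was the gene with the most reads among those tested in every shRRM2 library, at rank 3 in every shRRM2/shp16 library and at rank 7 in every control. NEAT1 stood at rank 285 to 315 by reads in control, at 18 in each shRRM2 library and at 42 or 43 in shRRM2/shp16. The unequal change shows in the ratio of MALAT1 to NEAT1 reads, which was 16.2 to 17.2 in control, 4.93 to 5.18 in shRRM2 and 6.99 to 7.05 in shRRM2/shp16.

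**Figure D2:**
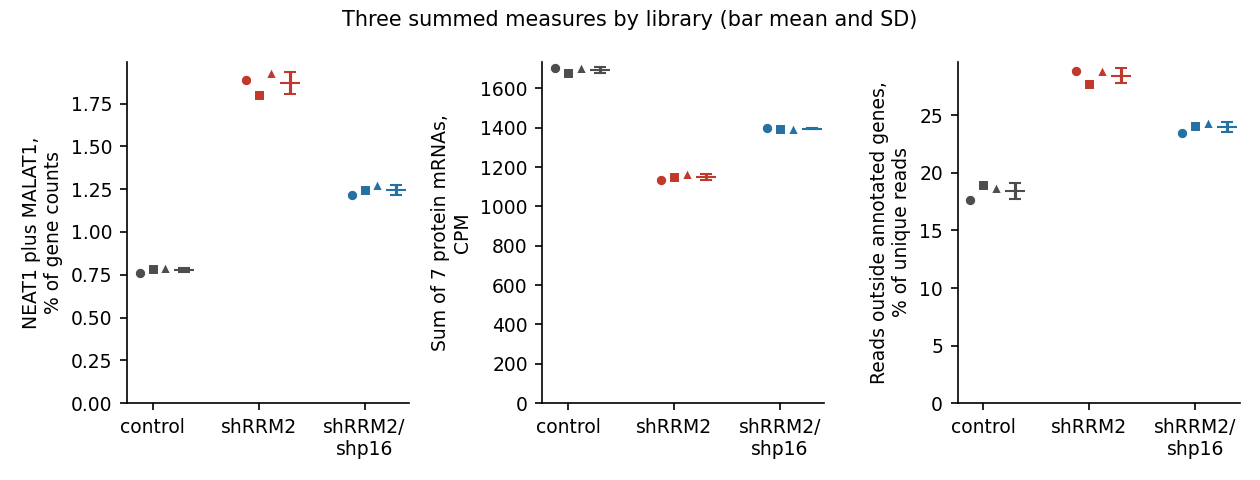
For each library, the summed share of gene counts taken by NEAT1 and MALAT1 (left, percent), the summed CPM of the 7 paraspeckle protein mRNAs (middle) and the percent of uniquely aligned reads in no annotated feature (right), with group mean and SD. Left and right rise from control to shRRM2/shp16 to shRRM2, and the middle panel falls in the same order, from 1693 to 1395 to 1150 CPM on average.

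The mRNAs of the paraspeckle proteins went the other way. All 7 fell in shRRM2 against control (median of their log2 fold changes -0.50, all genes tested 0.00). None fell as much as 2-fold, and 10.1% of all genes were called with at least that change in either direction. Called lower in this comparison were 31.8% of all genes and called higher 29.0%, so a change as such was common. NEAT1, whose change chose the list, is left out of the counts of groups without overlap. The groups did not overlap for any of the 8 other members, nor for 63.6% of all genes. In shRRM2/shp16 against shRRM2, 4 of the 7 rose (background 31.9% higher and 29.1% lower), none fell and 3 were not called. The 3 not called were also the only members whose groups overlapped, beside 64.7% of all genes without overlap. In shRRM2/shp16 against control all 7 were lower (background 32.4% lower, 30.0% higher and 62.4% either way), with a median of -0.38 beside 0.01. Groups were apart for all 8 members other than NEAT1, and for 66.2% of all genes. The comparisons share libraries, so these counts are not separate lines of evidence.

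SFPQ (ENSG00000116560; chromosome 1, 35176378 to 35193148, minus strand), a DBHS protein that the long NEAT1 transcript needs to accumulate, had the lowest fold change of the 7 in shRRM2. It was at 423, 419 and 420 CPM in control, 233, 236 and 242 CPM in shRRM2 and 316, 319 and 322 CPM in shRRM2/shp16, so each group kept within a narrow band apart from the others. The log2 fold change in shRRM2 was -0.83 ± 0.03 (adjusted p 1.4e-27), which left 56.3% of the control level. SFPQ rose again by 0.43 ± 0.03 in shRRM2/shp16 (adjusted p 2.1e-17), to 75.9% of control.

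NONO (ENSG00000147140; chromosome X, 71283192 to 71301168, plus strand), the usual partner of SFPQ in dimers, followed it at smaller size. Its libraries read 422, 412 and 424 CPM in control, 282, 286 and 296 CPM in shRRM2 and 375, 368 and 380 CPM in shRRM2/shp16, again without overlap. NONO fell to 68.7% of control in shRRM2 (log2 fold change -0.54 ± 0.03, adjusted p 9.9e-21) and rose to 89.2% in shRRM2/shp16, which was still below control by -0.16 ± 0.03 (adjusted p 1.5e-06). The 95% confidence intervals of the fall in shRRM2 did not overlap between SFPQ (-0.89 to -0.77) and NONO (-0.60 to -0.48).

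PSPC1 (ENSG00000121390; chromosome 13, 19674752 to 19783019, minus strand), the third DBHS protein and the least abundant member per length, had the smallest fold change of the 7 in shRRM2. It was at 46.3, 41.2 and 44.6 CPM in control, 37.2, 38.4 and 38.2 CPM in shRRM2 and 38.8, 38.0 and 39.8 CPM in shRRM2/shp16. Both hairpin groups lay below all controls and overlapped each other. PSPC1 fell by 0.22 ± 0.05 on the log2 scale in shRRM2 (adjusted p 0.00041), and between the hairpin groups the log2 fold change was 0.03, with a 95% interval of -0.07 to 0.14 (adjusted p 0.601). The lower level in shRRM2/shp16 than in control (-0.18 ± 0.05, adjusted p 0.00183) was not called by limma on log2(RPKM + 1), which gave -0.07 (adjusted p 0.164).

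**Figure D3:**
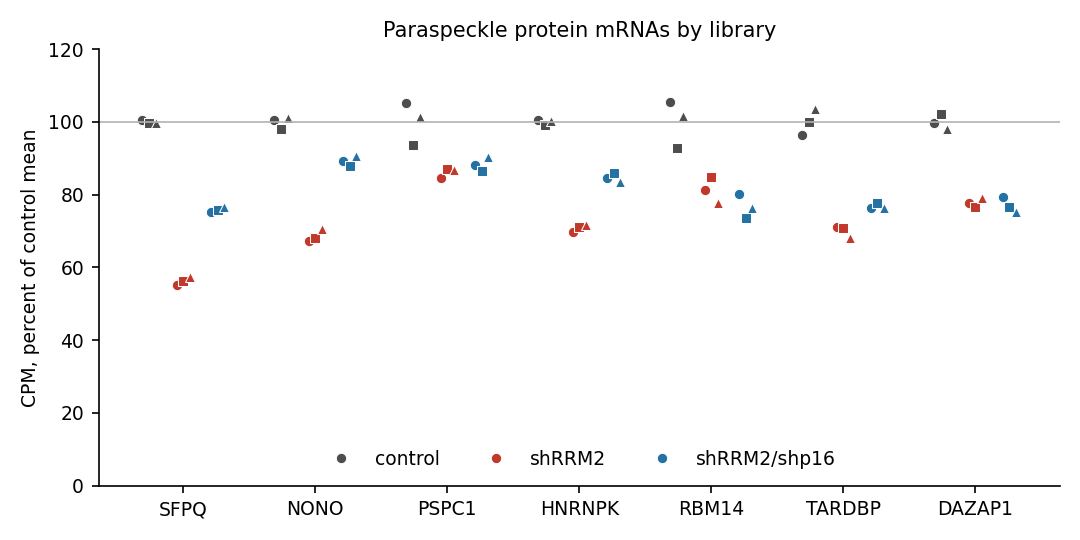
CPM of each of the 7 protein mRNAs in each library as percent of that gene's control mean, with control in grey, shRRM2 in red and shRRM2/shp16 in blue. SFPQ, NONO and HNRNPK sit at 56.3%, 68.7% and 70.9% of control in shRRM2 and higher, at 75.9%, 89.2% and 84.7%, in shRRM2/shp16, while PSPC1, RBM14 and DAZAP1 overlap between the hairpin groups.

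HNRNPK (ENSG00000165119; chromosome 9, 83968083 to 83980616, minus strand), which favours the long NEAT1 form, also had 3 separate groups. It was at 524, 517 and 523 CPM in control, 364, 371 and 374 CPM in shRRM2 and 441, 449 and 435 CPM in shRRM2/shp16, with no overlap. It fell in shRRM2 (log2 fold change -0.50 ± 0.03, adjusted p 2.5e-20), rose in shRRM2/shp16 against shRRM2 (0.26 ± 0.03, adjusted p 2.7e-11) and ended below control (-0.24 ± 0.03, adjusted p 9.7e-11).

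TARDBP (ENSG00000120948; chromosome 1, 11012344 to 11026420, plus strand) encodes TDP-43, an RNA-binding protein of splicing and RNA stability that also enters paraspeckles. Its libraries were at 101, 105 and 109 CPM in control, 74.8, 74.4 and 71.6 CPM in shRRM2 and 80.1, 81.6 and 80.1 CPM in shRRM2/shp16. The fall in shRRM2 (-0.51 ± 0.04, adjusted p 6.3e-15) was close in size to that of HNRNPK, and the rise that followed was small (0.13 ± 0.04, adjusted p 0.00492). TARDBP stood at 76.8% of control in shRRM2/shp16.

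RBM14 and DAZAP1, RNA-binding proteins needed to build paraspeckles, fell in shRRM2, with no difference called between the hairpin groups. RBM14 (ENSG00000239306; chromosome 11, 66616582 to 66627347, plus strand) was at 58.0, 51.0 and 55.8 CPM in control, 44.7, 46.6 and 42.8 CPM in shRRM2 and 44.1, 40.4 and 41.9 CPM in shRRM2/shp16. DAZAP1 (ENSG00000071626; chromosome 19, 1407569 to 1435687, plus strand) was at 127, 130 and 125 CPM, then 99.1, 97.5 and 101 CPM, then 101, 97.8 and 95.9 CPM in the same order of groups. For both genes the hairpin groups overlapped each other and lay below every control. The log2 fold changes in shRRM2 were -0.30 ± 0.05 for RBM14 (adjusted p 2.6e-06) and -0.36 ± 0.04 for DAZAP1 (adjusted p 1.3e-11). Between shRRM2/shp16 and shRRM2 the interval was -0.19 to 0.02 for RBM14 (adjusted p 0.170) and -0.09 to 0.06 for DAZAP1 (adjusted p 0.769). RBM14 overlaps the readthrough gene RBM14-RBM4 on the same strand (19 to 35 reads), and reads that fit both would not be counted for either, so its level is uncertain. TARDBP overlaps AL109811.4 on the same strand, which had 0 reads. Pseudogenes named after the 7 proteins held at most 0.115% of the reads of their parent, the share found for HNRNPK. Whether counting used the strand is not stated, and AP000769.2, which overlaps MALAT1 on the other strand, had 1 to 10 reads per library.

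**Figure D4:**
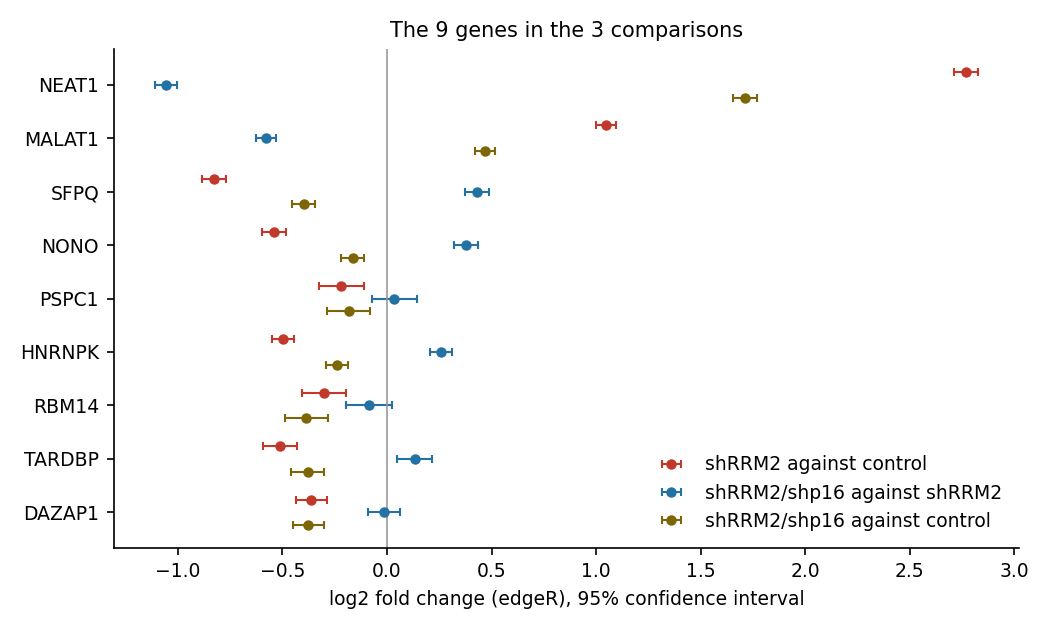
Fitted log2 fold change with 95% confidence interval for the 9 genes, with shRRM2 against control in red, shRRM2/shp16 against shRRM2 in blue and shRRM2/shp16 against control in ochre. NEAT1 and MALAT1 lie to the right of 0 against control and to the left in blue, the 7 proteins lie to the left against control, and the blue intervals of PSPC1, RBM14 and DAZAP1 cross 0.

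Levels of different genes were compared per length, as RPKM (CPM per kilobase of exon, on the same scaled libraries). In control the order was MALAT1 (861 ± 11), HNRNPK (102 ± 0.71), NONO (79.2 ± 1.3), SFPQ (56.7 ± 0.32), NEAT1 (20.1 ± 0.87), TARDBP (17.3 ± 0.63), RBM14 (14.0 ± 0.90), DAZAP1 (13.9 ± 0.30) and PSPC1 (9.14 ± 0.54), with RBM14 and DAZAP1 within their spread. In shRRM2 the NEAT1 level passed all 7 proteins, at 137 ± 2.6 RPKM beside 72.2 ± 1.0 for HNRNPK, 54.4 ± 1.4 for NONO and 31.9 ± 0.63 for SFPQ. In shRRM2/shp16 it lay at 65.8 ± 1.6 RPKM, below HNRNPK (86.4 ± 1.3) and NONO (70.7 ± 1.1) and above SFPQ (43.0 ± 0.40). The NEAT1 figure is spread over the 22767 bases of its whole gene, which understates it where reads come from the short form.

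The authors' deposited table holds their own comparison of shRRM2/shp16 with shRRM2, and of the 9 genes the authors' deposited table marks only SFPQ as significant (log2 fold change 0.44, q 0.0045). For NEAT1 the authors' deposited table lists -0.76 with a q of 0.0944, and for MALAT1 -0.52 with 0.109. All 9 listed changes have the sign found from the counts. The column of log2 RPKM for shRRM2 replicate c in the authors' deposited table does not follow the count file of that library, while the other 8 columns match theirs within 1% at all 8233 genes checked. At NEAT1 that column corresponds to 1677 CPM (unscaled library totals) where the count file gives 3119, and at SFPQ to 287 where it gives 239.

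Further paraspeckle proteins were taken from a list of 35, of which 33 were tested. In shRRM2 against control 21 were lower and 6 higher (median log2 fold change -0.26), beside 31.8% and 29.0% of all genes. In shRRM2/shp16 against shRRM2 16 were higher and 7 lower (median 0.09), beside 31.9% and 29.1% of all genes. In shRRM2/shp16 against control 20 were lower and 7 higher (median -0.30), beside 32.4% and 30.0% of all genes. The largest falls of the list in shRRM2 were those of RBMX (-1.01 ± 0.04), from 198 ± 0.38 to 98.2 ± 2.6 CPM, and HNRNPA1 (-0.93 ± 0.03), from 524 ± 10 to 276 ± 5.8 CPM. Both are hnRNP proteins of splicing (adjusted p 1.3e-26 and 2.5e-29). Both have processed pseudogenes that can share reads with them, so their counts are uncertain. TAF15 (0.56 ± 0.13) and ZC3H6 (0.42 ± 0.09) were the highest called, at 4.38 and 9.62 CPM in control, and TAF15 rests on 73 to 120 reads per library, with a second identifier at 0 reads. In shRRM2/shp16 against shRRM2 the highest called were RUNX3 (1.12 ± 0.25, on 12 to 46 reads) and RBM4B (0.49 ± 0.08), and the lowest were RBM3, described below, and FAM98A (-0.75 ± 0.04). Against control CARM1, which methylates paraspeckle proteins, was lower in shRRM2/shp16 (-0.73 ± 0.04).

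Several of these proteins bear on NEAT1 directly. NUDT21 and CPSF6, the cleavage factor that favours the short form, fell in shRRM2 from 95.4 ± 1.9 to 68.3 ± 1.8 CPM and from 106 ± 4.45 to 79.7 ± 3.65 CPM (log2 fold changes -0.48 and -0.41, adjusted p 5.3e-14 and 1e-11). That is a fall in mRNA of about the size of that of HNRNPK, which acts against them. Whether these levels bear on the choice between the NEAT1 forms was not tested, since the counts do not separate the forms. CPSF6 rose in shRRM2/shp16 (0.29 ± 0.04, adjusted p 4e-08), and for NUDT21 the log2 fold change was 0.08 ± 0.04 (adjusted p 0.0954).

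EWSR1, an RNA-binding protein of transcription and splicing, fell in shRRM2 (-0.25 ± 0.03) and rose again in shRRM2/shp16 (0.30 ± 0.03). HNRNPH3 and HNRNPM fell by -0.77 ± 0.04 and -0.69 ± 0.03 in shRRM2, SMARCA4, the SWI/SNF ATPase, by -0.38 ± 0.03, and MATR3, a nuclear matrix protein that binds SFPQ and NONO, by -0.26 ± 0.03. All 5 of these falls were called (adjusted p at most 1.1e-08). Against control, MATR3 and EWSR1 had log2 fold changes of 0.06 and 0.05 in shRRM2/shp16 (adjusted p 0.0675 and 0.166), and SMARCA4 was at 200 ± 3.3 and 201 ± 3.2 CPM in the hairpin groups. RBM3, a cold-induced RNA-binding protein, had its larger step between the hairpin groups, from 202 ± 2.9 to 116 ± 3.0 CPM (-0.79 ± 0.03, adjusted p 2.9e-24).

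The mRNAs of 25 proteins of the nuclear speckle, the compartment next to MALAT1, were all tested, and the speckle itself was not measured. In shRRM2 against control 16 were lower and 3 higher (median -0.23), and in shRRM2/shp16 against shRRM2 13 were higher and 3 lower (median 0.13). Against control, shRRM2/shp16 had 13 lower and 9 higher (median -0.12). Of all genes, 31.8%, 29.1% and 32.4% were lower in these comparisons, in that order, and 29.0%, 31.9% and 30.0% higher. The splicing factors SRSF2 and SRSF3 had the largest falls in shRRM2 (-0.76 ± 0.03 and -0.75 ± 0.03, adjusted p 4.1e-24 and 7e-24) and were not called between the hairpin groups (144 and 144 for SRSF2, adjusted p 0.933, and 155 and 161 for SRSF3, adjusted p 0.176). SF3B1, a core splicing factor, was among the 3 that rose (0.12 ± 0.03).

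Of 7 transcription factors reported to act on NEAT1, 3 were higher and 2 lower in shRRM2 than in control. In shRRM2/shp16 against shRRM2 3 were higher and 3 lower (median -0.04). In shRRM2/shp16 against control 5 were higher and 2 lower (median 0.22). Called either way were 60.9%, 61.1% and 62.4% of all genes in these comparisons, in that order. HIF1A rose in both steps (0.24 ± 0.03 and 0.77 ± 0.03). EPAS1, which encodes HIF-2alpha, rose in shRRM2 from 689 ± 8.3 to 916 ± 9.0 CPM (0.41 ± 0.03, adjusted p 1.8e-18) and was at 867 ± 16 CPM in shRRM2/shp16. STAT3 rose by 0.26 ± 0.03 in shRRM2. BRCA1, a reported repressor of NEAT1, fell by -0.57 ± 0.06 in shRRM2. It was lower again in shRRM2/shp16, at 25.4 ± 1.5 CPM beside 28.6 ± 1.5 in shRRM2 (-0.17 ± 0.06, adjusted p 0.0153), where NEAT1 was also lower. In shRRM2 against control HSF1 was lower by -0.10 ± 0.04 (adjusted p 0.025). HSF1 was called in only 10 of 21 alternative settings, and was lost with DESeq2, every limma setting, the minimum of 10 counts, the fit of the 6 libraries compared, and without control replicate c or shRRM2 replicate a or b. ATF2 was at 53.9 ± 1.6 and 54.5 ± 2.3 CPM. These are mRNA levels and say nothing of the activity of the proteins.

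Other long noncoding RNAs moved in both directions. Of 28 matched from the list, 25 were tested. In shRRM2 against control 13 of these were higher and 9 lower (median 0.12, all genes 29.0% higher and 31.8% lower). KCNQ1OT1, a nuclear antisense RNA of an imprinted domain, had the largest rise, from 91.0 ± 3.8 to 215 ± 4.5 CPM (1.24 ± 0.04, adjusted p 4.1e-30), and fell to 137 ± 4.6 CPM in shRRM2/shp16, the order of groups seen for MALAT1. LINC-PINT rose by 0.97 ± 0.09. SNHG12 and SNHG1, hosts of small nucleolar RNAs, had the largest falls (-0.86 ± 0.08 and -0.82 ± 0.05). In shRRM2/shp16 against shRRM2 15 were higher and 6 lower (median 0.32), beside 31.9% and 29.1% of all genes. The called RNAs of the list ran from FENDRR (1.48 ± 0.03) and MIR17HG (0.96 ± 0.15) to CYTOR (-1.47 ± 0.05) and MIR31HG (-1.32 ± 0.08). In shRRM2/shp16 against control 14 were higher and 6 lower (median 0.23), beside 30.0% and 32.4% of all genes. Over the whole GENCODE class of lincRNAs, 292 of 793 tested were higher in shRRM2 than in control and 61 lower (median 0.41), while of 13032 protein-coding genes 3626 were higher and 4977 lower (median -0.05). Between the hairpin groups (shRRM2/shp16 against shRRM2) the class had 119 higher and 212 lower (median -0.13), opposite in sign to the median of the list, and against control 229 were higher and 91 lower (median 0.25).

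The genes around the NEAT1 and MALAT1 pair were examined to see whether the change extended along the chromosome. Within 150000 bases on either side the annotation places 14 protein-coding genes, of which 12 were tested and TIGD3 and KCNK7 had at most 9 reads in any library. In shRRM2 against control 4 were higher and 4 lower, where 29.0% of all genes were higher and 31.8% lower. The median of the neighbours was -0.03 beside 0.00 for all genes. The highest called neighbour was LTBP3, a TGF-beta binding protein (0.55 ± 0.04, adjusted p 1.4e-15). FRMD8, the nearest before NEAT1, was higher by 0.15 ± 0.05 (adjusted p 0.0106), with overlapping groups. In shRRM2/shp16 against shRRM2 3 were higher and 3 lower (median 0.01), and FRMD8 fell (-0.43 ± 0.05). Against control 3 were higher and 4 lower (median -0.06). Of all genes, 31.9% were higher and 29.1% lower between the hairpin groups, and 30.0% and 32.4% in shRRM2/shp16 against control.

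Genes with the most similar course were sought by the Euclidean distance between log2 CPM values, each centred on its mean over the 9 libraries, among 11305 genes. Closest to NEAT1 was CLDN1, a tight junction protein, at a distance of 0.34, which went from 15.7 ± 0.81 to 97.9 ± 4.0 and 43.7 ± 1.5 CPM in control, shRRM2 and shRRM2/shp16. DIO2, a deiodinase that activates thyroid hormone, followed at 0.62, then ALPK3 at 0.92, the lipase gene LIPG at 1.06 and TGM2, a transglutaminase, at 1.11. For MALAT1 the distances were smaller, at 0.083 for TMEM2, 0.085 for NBEAL1, 0.097 for CPED1, 0.14 for RCAN1, an inhibitor of calcineurin, and 0.16 for SRPX. TMEM2, a cell surface hyaluronidase, went from 152 ± 2.9 to 323 ± 7.9 and 210 ± 5.8 CPM. The distances describe 9 libraries in 3 groups. They are not scaled to the size of a gene's change, which was larger for NEAT1, so the 2 RNAs cannot be compared by them.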

How the data were processed

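The authors deposited raw counts of reads per Ensembl gene for each of 9 libraries of stranded, ribosomal RNA-depleted total RNA, per the labels' protocols; HTSeq's closing summary lines entered neither totals nor tests. Per the submitters' processing notes, TopHat2 2.0.9, Cufflinks 2.0.2, Cuffdiff and GRCh38 were used; annotation release and strand setting are not given in the sources used here. A deposited table gives, per the file headers, log2 RPKM by library, group FPKM values and the authors' log2 fold change, p-value and q-value. Calculated back from the counts, the log2 RPKM column is log2(x + 1) with x in CPM per base, which shrinks fold changes.

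The test was edgeR 4.0.16 under R 4.3.3. Its filter filterByExpr left 16561 genes (99.82% of counts), TMM scaled the libraries, and all 9 entered 1 quasi-likelihood fit (glmQLFit, glmQLFTest) with 6 residual degrees of freedom. Tests were two-sided with Benjamini-Hochberg adjustment over all genes and a threshold of 0.05. A standard error is the log2 fold change over the root of F. Positions, exon lengths and sequences came from GENCODE 29 (GRCh38). Named genes were the members, RRM2, CDKN2A, fixed genes of each list, the 2 highest and 2 lowest called of a list, and the 5 closest in course to each RNA. Some genes that this rule names are not reported here. Members and lists were chosen with earlier results of these data known. The fit was tested on simulated counts. Alternatives used RLE, DESeq2 1.42.0, limma 3.58.1, other filters, fewer libraries and a replicate block. Unmatched columns with sample values numbered 0.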

Additional observations from a re-analysis of the deposited data

How the results depend on the processing

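Over 21 alternative settings and 3 comparisons, no called member value changed sign. DAZAP1 in shRRM2/shp16 against shRRM2 (-0.014), called in no setting, turned positive in 7 settings, up to 0.046 with limma on log2(RPKM + 0.1). Of 567 recomputed member values, 550 kept their call or, for NEAT1, which has none, moved by less than the replicate spread. The remainder were 10 lost calls and 7 NEAT1 values that moved by more than that spread. The losses were those of MALAT1 on the deposited log2 RPKM and of PSPC1 in shRRM2/shp16 against control with limma (given beside the results, adjusted p 0.143 to 0.164). On the deposited log2 RPKM the NEAT1 log2 difference shrank to 0.13, -0.06 and 0.07 in the 3 comparisons, which that scale brings about by construction. In the comparisons that include the shRRM2 libraries, the replicate c column that does not follow its counts shrank it further. NEAT1 is at 0.103 in that column, beside 0.187 and 0.180 in shRRM2 replicates a and b. Leaving NEAT1 and MALAT1 out of the library sizes, or any 1 library out, changed no member's call. On that scale 62.4% of calls in shRRM2/shp16 against shRRM2 were higher, where the counts gave 52.3%, and 59.5% against 48.1% in shRRM2/shp16 against control. With limma on log2(RPKM + 0.1) the median of all genes in that last comparison was 0.104. Replicate letters did not pair the libraries (correlations of deviations -0.02 to 0.049 for same letters), and a fit with the replicate block called 10101, 10134 and 10388 genes where the fit without it called 10079, 10116 and 10339. The setting without the shRRM2 replicate c column was chosen after seeing the data. The counts, from 586 reads upward per member and library, cover sampling error of amplified reads only.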

Other observations

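Genes of nuclear RNA surveillance, which degrade or release transcripts kept in the nucleus, were also counted. Of 9 tested, 6 were lower and 2 higher in shRRM2 than in control (median log2 fold change -0.26). In shRRM2/shp16 against shRRM2 4 were higher and 0 lower (median 0.04). In shRRM2/shp16 against control 4 were lower and 2 higher (median -0.06). Called either way in these comparisons, in that order, were 88.9%, 44.4% and 66.7% of the 9. The shares of all genes were 60.9%, 61.1% and 62.4%. SRRT, which links the cap of new transcripts to their processing or decay, fell from 155 ± 4.8 to 88.3 ± 3.6 CPM in shRRM2 (-0.81 ± 0.04, adjusted p 1.2e-22) and rose to 120 ± 2.0 CPM in shRRM2/shp16 (0.44 ± 0.04, adjusted p 1.7e-13). EXOSC10, a nuclear exosome nuclease, fell in shRRM2 (-0.46 ± 0.04) and was at 70.1 ± 1.9 CPM in shRRM2/shp16, beside 73.8 ± 2.2 in shRRM2. ZFC3H1, which tethers polyadenylated nuclear RNA to the exosome, rose from 62.4 ± 1.7 to 97.0 ± 1.6 CPM in shRRM2 (0.64 ± 0.04, adjusted p 8e-18) and was at 92.5 ± 1.9 CPM in shRRM2/shp16. Whether these levels bear on those of NEAT1 or MALAT1 was not tested.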
